A study of Mus musculus with 32 samples.

Results

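Out of 18194 genes measured on mouse expression arrays, 108 formed the set described here: genes that were higher in a pre-B cell line carrying an Ebf1-Engrailed fusion and that fell between 6 h and 24 h after Ebf1-ER was switched on in cells lacking Ebf1. A gene entered the set when its mean with Ebf1-Eng exceeded its mean with empty vector by at least 0.8, and its mean at 24 h of Ebf1-ER was below its mean at 6 h by at least 0.5, both on the log2 scale. The most variable probe set of each gene in each experiment stood for the gene. These differences were met by 122 genes, which is 12.1% of the 1011 genes that passed the Ebf1-Eng threshold and 14.6% of the 833 that passed the time-course threshold, and 14 of them were dropped by name (chemokines, immediate-early genes, integrins and similar families). Because both contrasts chose the genes, the values in them are given below as a description and were not tested.

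The study held 32 arrays in 3 experiments. In the first, the mouse pre-B-cell line 230238 carried either the retroviral construct pMIG-Ebf1-engrailed (Ebf1-Eng, 3 samples) or the pMIG vector alone (empty vector, 3 samples). In the second, E14.5 fetal liver cells of Ebf1-/- embryos (strain C57BL/6J) were grown on OP9 stromal cells with KIT ligand, FLT3L and interleukin-7, infected to carry Ebf1-ER, sorted by GFP, exposed to 4-hydroxytamoxifen (0.1 uM) and collected after 0, 6, 12 or 24 h (2 samples at each time). The third compared enlarged lymph nodes of Ebf1+/-Pax5+/- mice of about 30 weeks on a C57BL/6J background (8 lymph nodes, 2 arrays each) with wild-type C57BL/6J pro-B cells (2 samples). The pre-B line is a single line, the lymph node samples are labelled as cells of the enlarged node with no sort named, and cells without Ebf1-ER given 4-hydroxytamoxifen were not analysed here, so Ebf1-ER activity, the drug and time in culture cannot be told apart. In bulk RNA, fewer cells of a type and less RNA per cell also cannot be told apart. The labels do not say whether samples of a group were separate infections or cultures, so the p-values rest on sample-to-sample spread that could be purely technical.

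Ebf1 is a transcription factor that starts and maintains the B-lymphoid programme, and it is known both to switch on B-cell genes with Pax5 and to hold down genes of other blood lineages. The Engrailed domain is a transcriptional repressor, and a fusion to it is commonly used to turn an activator into a repressor of its own targets. The ER domain keeps a fused factor out of the nucleus until 4-hydroxytamoxifen binds, so that its activity can be timed.

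All values were read as log2, although the log base is not given in the sources used here, and every fold rests on that reading. In the pre-B line and the Ebf1-ER experiment they were centred on each probe set, with a median of 0. In the tumour experiment 10846 of 45101 probe sets had a median of 0. Differences between samples of an experiment can thus be read, but not the level of a gene or its rank against other genes. Ebf1 itself was at -1.16, -1.45 and -0.49 in the Ebf1-Eng samples and at 0.87, 0.49 and 0.83 with empty vector. All 5 of its probe sets were lower with Ebf1-Eng, by 0.37 to 1.77. Over the Ebf1-ER time course Ebf1 stood at 0.71 and 0.67 at 0 h, 0.06 and 0.10 at 6 h, -0.16 and -0.13 at 12 h, and -0.09 and -0.06 at 24 h. Whether these probe sets detect the fusion transcripts is not given in the sources used here. In the tumour experiment the probe sets of Ebf1 disagreed: 4 were lower in the lymph nodes than in the samples labelled wild-type pro-B, by 0.72 to 1.01, and the most variable one was 4.48 higher.

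Some libraries stood apart. On array 2 at 24 h the 18 hybridisation control probe sets lay at a median of -6.26, and on array 2 at 12 h at 0.720, against -0.07 to 0.11 on the other 6 arrays of that experiment, while the medians over all probe sets were close to 0 on every one. Leaving out array 2 at 24 h gave 150 genes by the same rule, 99 of them among the 108, and leaving out array 1 at 24 h gave 86, with 78 shared. Ebf1-Eng sample 3 was the lowest of the 3 Ebf1-Eng samples for 76 members, and without both samples numbered 3 the rule gave 121 genes, 103 of them shared. The 2 samples labelled wild-type pro-B carried high signal of granulocyte genes: myeloperoxidase (Mpo) stood at 6.69 and 7.61 there and between -0.27 and 0.10 in the lymph nodes, and S100a8 at 8.53 and 8.55 against -1.80 to 4.77. Over 33 measured myeloid markers, the mean was 3.13 and 3.32 in these samples and between -0.82 and 0.60 in the lymph nodes.

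Some members carry regulatory RNA or sequence that helps to see what was measured. Of the members, Mir155hg is the host transcript of miR-155, AA467197 contains the gene of miR-147, and Vmp1 contains that of miR-21a. The arrays measured these host transcripts and not the mature miRNAs. The mature sequences from RefSeq (GRCm38.p6) are given with the seed, bases 2 to 8, in capitals. They lie at chr16:84714143-84714165 (+ strand), chr2:122640814-122640837 (+ strand) and chr11:86584120-86584141 (- strand), and no seed is shared among them.
mmu-miR-155-5p: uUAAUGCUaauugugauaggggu
mmu-miR-147-5p: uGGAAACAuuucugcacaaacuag
mmu-miR-21a-5p: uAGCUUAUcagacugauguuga

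Promoter windows from RefSeq (GRCm38.p6, 250 bases before to 50 after the start site) were found for 85 of the 108 members and for 14453 of all genes. On both strands, the full Ebf1-type palindrome (TCCC and GGGA around any 2 bases) occurred in 1 member, Sgk1 (1.18%), against 1.28% of all genes with a window. A gene with several windows counted when any of them matched. The AP-1 motif TGANTCA occurred in 13 members (15.3%), against 7.54% of all genes. The interferon-response core (2 copies of GAAA around any 2 bases) occurred in 8 members (9.41%), against 3.63%. Of these, Igtp and Slfn8 are in the interferon-inducible group below, and Arhgap6, Dhrs3, Emilin2, Hbb-y, Prss2 and Sgk1 are not. The antioxidant-response core (TGAC and GC around any 3 bases), which can share its first letters with AP-1, occurred in 19 members (22.4%), against 16.1%. These are matches of letters in a short window, described without a test, and they do not show binding. The windows of Sgk1 at chr10:21881934-21882233 (+ strand), Igtp at chr11:58199306-58199605 (+ strand) and AA467197 at chr2:122637637-122637936 (+ strand) are shown as examples of the first 3 motifs, 1 each, which stands in capitals. The Sgk1 window also holds a match to the interferon-response core on the other strand, left in lower case.
Sgk1: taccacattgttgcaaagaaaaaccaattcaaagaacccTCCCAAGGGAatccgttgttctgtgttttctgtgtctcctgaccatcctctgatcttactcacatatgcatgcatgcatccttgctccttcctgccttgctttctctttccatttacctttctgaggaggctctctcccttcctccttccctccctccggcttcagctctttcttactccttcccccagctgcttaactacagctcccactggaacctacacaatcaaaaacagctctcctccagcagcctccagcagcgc
Igtp: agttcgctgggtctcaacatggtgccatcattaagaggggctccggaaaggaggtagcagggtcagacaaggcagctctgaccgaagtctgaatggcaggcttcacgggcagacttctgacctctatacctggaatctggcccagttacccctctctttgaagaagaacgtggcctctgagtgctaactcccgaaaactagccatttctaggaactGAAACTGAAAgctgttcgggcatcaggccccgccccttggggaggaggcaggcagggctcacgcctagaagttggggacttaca
AA467197: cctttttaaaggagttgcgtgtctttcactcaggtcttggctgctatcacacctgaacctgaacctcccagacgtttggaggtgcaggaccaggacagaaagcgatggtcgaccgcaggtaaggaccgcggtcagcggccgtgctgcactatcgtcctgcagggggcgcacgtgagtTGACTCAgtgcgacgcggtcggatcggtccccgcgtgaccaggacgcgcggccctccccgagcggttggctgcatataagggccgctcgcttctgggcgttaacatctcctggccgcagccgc

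Across the set, the median difference between Ebf1-Eng and empty vector was 1.41 (0.80 to 5.86), against -0.02 over all genes. All 3 Ebf1-Eng samples lay above all 3 empty vector samples for 102 of the 108 members, where 16.5% of all genes did. With limma, 93 passed an adjusted p under 0.05 as higher with Ebf1-Eng (7.93% of all genes did). With the sample number as a block, a pairing that the labels do not state, 105 did. From 6 h to 24 h of Ebf1-ER the median change was -0.65 (-2.02 to -0.50), against 0.00 over all genes. Both 24 h arrays lay below both 6 h arrays for all 108 (27.4% of all genes did), and 70 passed the threshold as lower (4.39% of all genes did). Nothing is read from these counts, since the same values chose the genes.

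**Figure D1:**
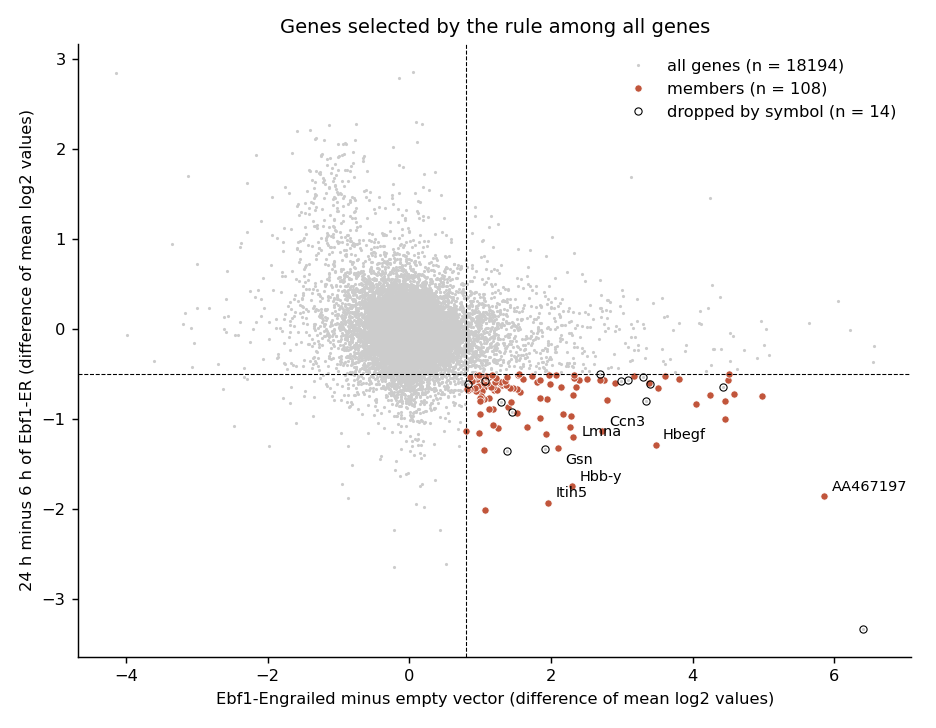
Each grey point is 1 of 18194 genes, each filled point 1 of the 108 members and each open circle 1 of the 14 genes dropped by symbol; the x axis is the difference of mean log2 values between Ebf1-Eng and empty vector, the y axis that between 24 h and 6 h of Ebf1-ER, and dashed lines mark the thresholds of 0.8 and -0.5. AA467197 lies farthest out among the members on the x axis, at 5.86.

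The members just inside and just outside the thresholds had nearly the same values. Scel, Heatr5a and Rnf150 entered at 0.80, 0.81 and 0.83 for Ebf1-Eng, whereas Cuedc1, B4galnt4 and Nsmf stayed out at 0.79 for each. On the time-course side 1110008P14Rik, Prss2 and Nqo1 entered at -0.50, -0.50 and -0.51, and Micall1, Gstm1 and Rnf11 stayed out at -0.50. For 63 members the gene had several probe sets, and of the 136 others 114 were higher with Ebf1-Eng and 114 lower at 24 h than at 6 h. They were read on the arrays and contrasts that chose the genes, and the share over all probe sets is not given here. Nothing is therefore read from these counts. The same probe set stood for the gene in both experiments for 89 members.

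The fall after 6 h was not always a fall from the starting state. The mean at 24 h was below that at 0 h for 84 members and above it for 24, so the name given to the set, genes repressed by Ebf1, describes the step from 6 h to 24 h for those 24 and not the whole course. For 64 members the mean at 6 h was above that at 0 h, and 40 were above 0 h at 6 h and below it at 24 h. At 12 h, 77 members lay between their 6 h and 24 h means, 13 above the 6 h mean and 18 below the 24 h mean. Over all members a median of 60.9% of the fall had taken place by 12 h. Both 12 h arrays lay between the 6 h pair and the 24 h pair for 48 members, where 5.24% of all genes showed such a fall. The bounds at 6 h and 24 h are the values that chose the genes, which favours 12 h values between them. The rule also favours 6 h means above 0 h and 24 h means below 0 h. All counts of this paragraph and the 60.9% are therefore descriptions, and nothing is read from the share of all genes.

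**Figure D2:**
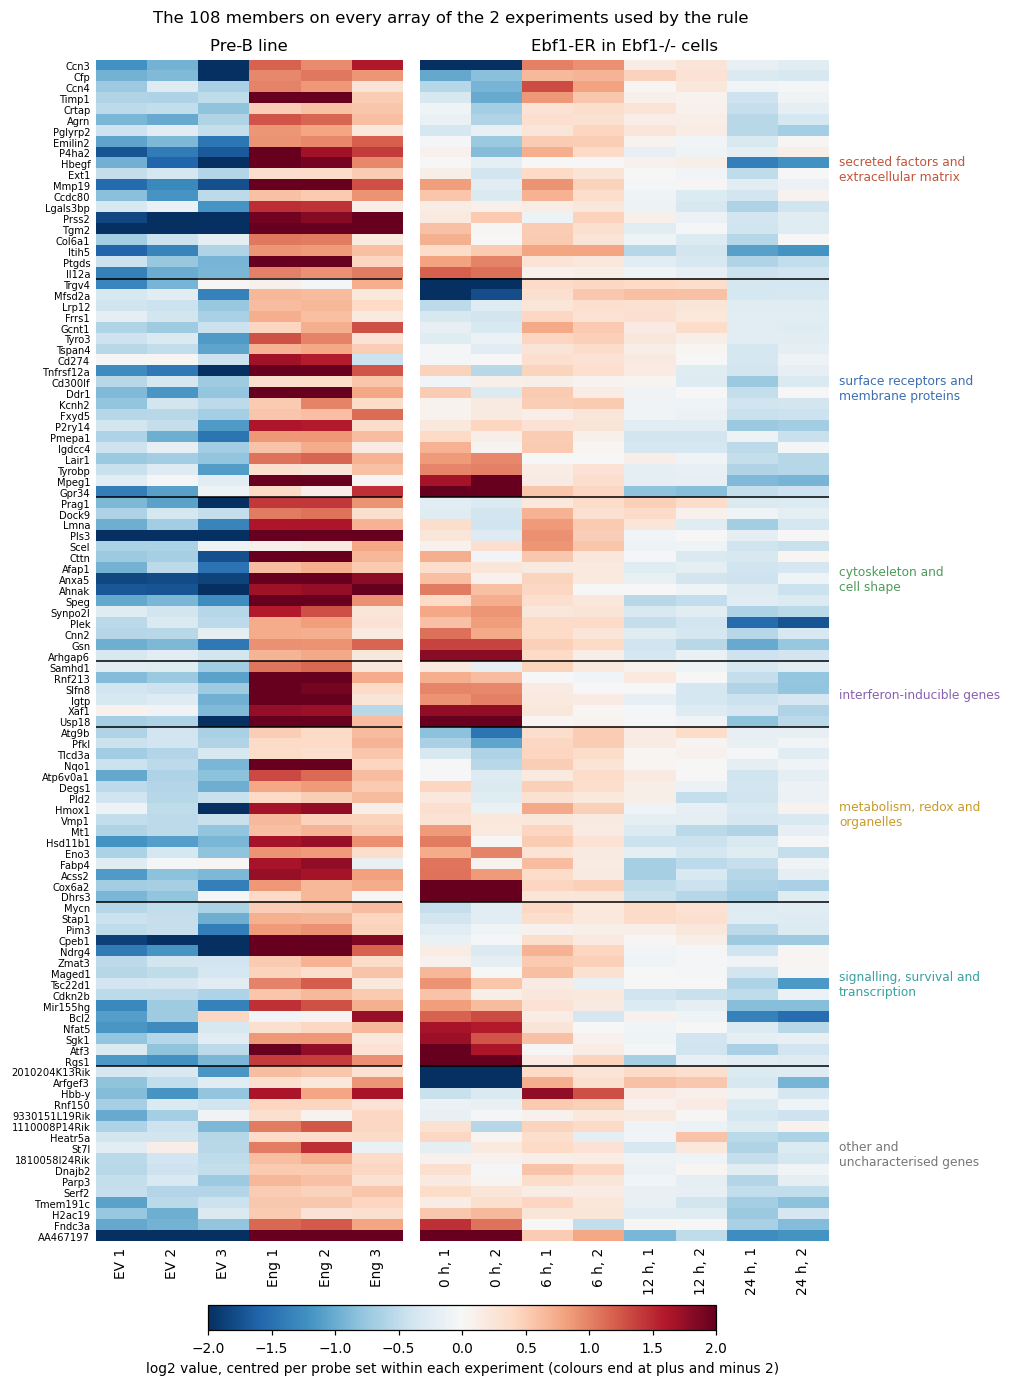
Rows are the 108 members grouped by what their products do and ordered by the difference of 12 h and 0 h; columns are the 6 arrays of the pre-B line and the 8 arrays of the Ebf1-ER course, and colour is the centred log2 value. Ebf1-Eng sample 3 is the palest of the 3 Ebf1-Eng columns for many rows, and the 0 h columns hold both the highest and the lowest values of the time course.

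The difference of 12 h and 0 h came from 4 arrays whose values did not enter either difference of the rule. All 8 arrays of the course, however, set which probe set stood for a gene. They also gave the pooled spread behind the SEs and p-values, so the 6 h and 24 h arrays that chose the genes entered the calls. At an adjusted p under 0.05 (limma over all genes), 44 members were lower at 12 h, 24 were higher and 40 did not pass the threshold, where 19.9% of all genes passed as lower and 19.9% as higher. The 12 h arrays lay below both 0 h arrays for 54 members and above both for 30, against 31.2% and 34.6% of all genes. The median difference was -0.27, against 0.03 over all genes, with a range from -4.83 to 4.67. At least 1 log2 unit of change, in either direction, was found for 31.5% of the members and 12.6% of all genes. The groups of products used below were drawn after values were seen, so differences between groups are descriptions.

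**Figure D3:**
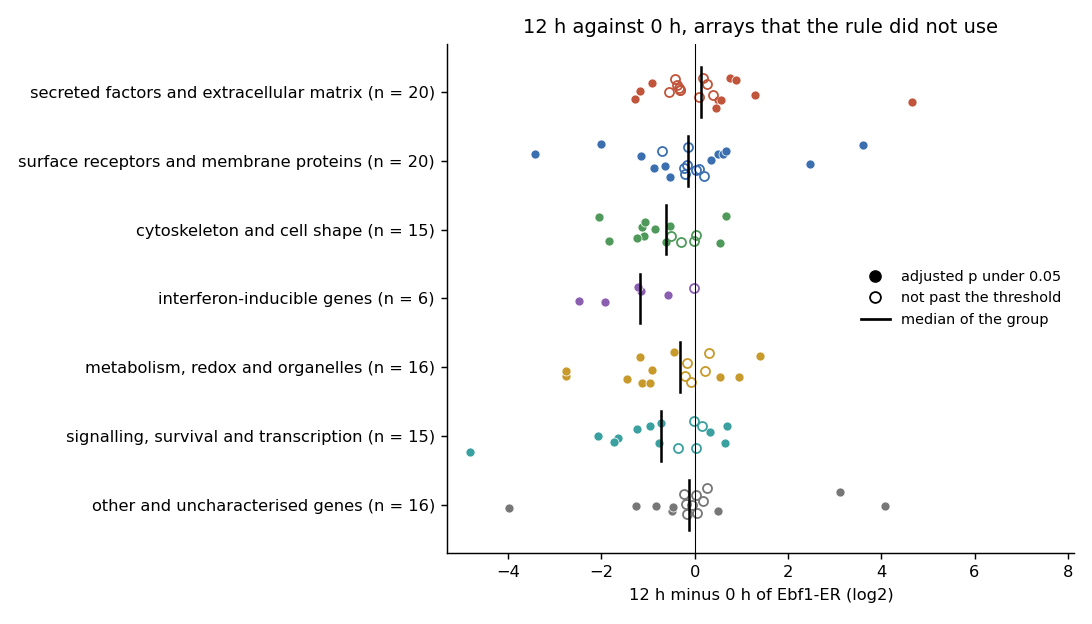
Each point is 1 member, placed by its log2 difference between 12 h and 0 h of Ebf1-ER and by the group of its product; filled points passed an adjusted p under 0.05, open points did not, and black bars are group medians. The interferon-inducible group has its median at -1.18, and the secreted and matrix group at 0.14.

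Secreted factors and matrix proteins made up 20 members. Against 0 h, 7 were higher at 12 h and 3 lower, where 19.9% of all genes passed each way. Ccn3, a matricellular protein of the CCN family, was at 1.19, 0.94 and 1.60 with Ebf1-Eng and at -1.21, -0.94 and -2.28 with empty vector. It stood at -4.32 and -4.60 at 0 h, 1.01 and 0.91 at 6 h, 0.15 and 0.26 at 12 h and -0.15 and -0.21 at 24 h. All later arrays thus lay far above the 0 h pair, and the difference of 12 h and 0 h was 4.67 ± 0.12 (SE, adjusted p = 1.07e-06), a 25.4-fold rise. Cfp, properdin of the alternative complement pathway, took the same shape, from -1.03 and -0.83 at 0 h to 0.65 and 0.68 at 6 h and -0.29 and -0.32 at 24 h, with a rise at 12 h of 1.30 ± 0.11 (SE, adjusted p = 4.58e-05). Its Ebf1-Eng samples at 0.96, 1.06 and 0.89 did not overlap the empty vector samples at -0.94, -0.89 and -2.09. Timp1, an inhibitor of matrix metalloproteinases, was at 2.11, 2.16 and 0.50 with Ebf1-Eng and -0.60, -0.62 and -0.50 without, so that sample 3 was the least above the controls. It went from -0.31 and -1.02 at 0 h to 0.87 and 0.54 at 6 h, 0.11 and 0.08 at 12 h and -0.41 and -0.08 at 24 h. Its rise at 12 h of 0.76 ± 0.23 (SE, adjusted p = 0.0337) missed the threshold without 0 h array 2, at 0.41 (adjusted p = 0.140), and without either 12 h array.

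Hbegf, an EGF-family growth factor, was at 2.02, 1.92 and 0.96 with Ebf1-Eng and -0.96, -1.59 and -3.00 with empty vector. It held its value until 12 h and fell only afterwards: its arrays were at 0.01 and -0.19 at 0 h, -0.01 and 0.01 at 6 h, 0.08 and 0.11 at 12 h and -1.36 and -1.21 at 24 h. The 12 h arrays differed from 0 h by 0.19 ± 0.10 (SE, adjusted p = 0.205). Itih5, a hyaluronan-binding inter-alpha-trypsin inhibitor chain, had the steepest fall from 6 h of this group, from 0.78 and 0.80 to -1.09 and -1.19, and was lower at 12 h than at 0 h by -0.92 ± 0.11 (SE, adjusted p = 0.000301). Il12a, the p35 subunit of interleukin-12, started high at 1.19 and 1.11 and was already at 0.08 and 0.11 at 6 h, with a fall at 12 h of -1.28 ± 0.09 (SE, adjusted p = 2.15e-05). In the pre-B line it was at 1.00, 0.92 and 1.04 against -1.35, -0.98 and -0.92. Matrix and collagen-processing members such as Tgm2, Mmp19 and P4ha2 were among the largest Ebf1-Eng differences (4.58, 4.05 and 3.38) and were not past the threshold at 12 h.

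Because the Ebf1-/- cells were grown on stroma, 23 measured stromal markers were set beside these members. Their mean was 0.68 and 0.16 on the 0 h arrays, 0.45 and 0.13 at 6 h, -0.07 and -0.22 at 12 h, and -0.34 and -0.05 at 24 h. The 20 secreted and matrix members averaged -0.06 and -0.41, 0.51 and 0.42, 0.01 and -0.03, and -0.48 and -0.30 on the same arrays. From 6 h to 24 h, 10 of the 23 markers fell by at least 0.5, as the rule asks, where 4.58% of all genes did. At an adjusted p under 0.05 (limma), 5 passed as lower (4.39% of all genes did) and 1 as higher (4.92%). The median change of the markers was -0.39, and array 1 was above array 2 at 0 h and 6 h in both lists. The 88 other members had this pattern too, at 0.44 and 0.29 at 0 h and 0.39 and 0.26 at 6 h. They averaged -0.06 and -0.10 at 12 h and -0.45 and -0.37 at 24 h, so neither the pattern nor the fall was particular to the secreted and matrix members. The part of stromal RNA in the fall of the members was not tested. In the pre-B line, which the labels describe without stroma, 1 of the 23 markers, the member Timp1, was higher with Ebf1-Eng by at least 0.8.

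The 20 surface receptors and membrane proteins split evenly at 12 h, with 6 higher and 6 lower than at 0 h (19.9% of all genes each way). Gpr34, a G-protein-coupled receptor for lysophosphatidylserine, started at 2.37 and 2.82 and had dropped to 0.55 and 0.42 at 6 h, -0.81 and -0.86 at 12 h and -0.48 and -0.42 at 24 h. At 12 h it was lower by -3.43 ± 0.15 (SE, adjusted p = 3.9e-06), or 10.8-fold. In the pre-B line its Ebf1-Eng values of 0.39, 0.11 and 1.47 were highest in sample 3, against -1.38, -1.09 and -0.11 with empty vector. Mpeg1 encodes perforin-2, a pore-forming protein of phagocytes. It was at 2.52, 2.76 and 0.03 with Ebf1-Eng and -0.21, -0.03 and -0.21 with empty vector, so Ebf1-Eng sample 3 barely exceeded the controls. In the time course it fell from 1.66 and 1.99 at 0 h to -0.19 and -0.17 at 12 h, by -2.00 ± 0.13 (SE, adjusted p = 1.58e-05), and to -0.88 and -0.93 at 24 h. Tyrobp, the DAP12 signalling adaptor of myeloid and NK receptors, fell at 12 h by -1.15 ± 0.09 (SE, adjusted p = 3.87e-05). P2ry14, a receptor for UDP-sugars, was at 1.61, 1.58 and 0.37 against -0.37, -0.48 and -1.13 in the pre-B line and fell by -0.54 ± 0.10 (SE, adjusted p = 0.00391) at 12 h.

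Of the 33 measured myeloid markers, 10 passed as lower (4.39% of all genes did) and 2 as higher (4.92%) at 24 h than at 6 h. Their mean went from 0.31 on both 0 h arrays to -0.21 and -0.14 at 24 h. In the pre-B line 8 were higher (7.93% of all genes were) and 2 lower (5.67%) with Ebf1-Eng. The part of myeloid cells in the values of Mpeg1 and Tyrobp was not tested.

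Several membrane proteins rose instead. Mfsd2a, a transporter of lysophospholipids, went from -1.99 and -1.77 at 0 h to 0.32 and 0.54 at 6 h and 0.60 and 0.58 at 12 h, then to -0.35 and -0.32 at 24 h, and its rise at 12 h was 2.47 ± 0.11 (SE, adjusted p = 4.93e-06). Trgv4, a variable segment of the T-cell receptor gamma locus, rose from -3.24 and -3.23 to 0.40 and 0.35 at 12 h, by 3.61 ± 0.08 (SE, adjusted p = 8.99e-07), and stood at -0.36 and -0.35 at 24 h. Its Ebf1-Eng samples at 0.09, -0.02 and 0.73 overlapped the empty vector samples at -1.31, -0.93 and 0.02. None of 22 measured T-cell markers was a member.

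Among the 15 cytoskeletal members, 9 were lower at 12 h than at 0 h and 2 higher (19.9% of all genes each way). Gsn, the actin-severing protein gelsolin, was at 0.91, 0.90 and 1.17 with Ebf1-Eng and -0.98, -0.90 and -1.44 with empty vector. It declined at every step, from 1.36 and 1.35 at 0 h through 0.48 and 0.40 and -0.40 and -0.56 to -1.01 and -0.76 at 24 h, with no overlap between times. At 12 h the fall was -1.83 ± 0.11 (SE, adjusted p = 1.41e-05). Plek, the protein kinase C substrate pleckstrin, had the largest fall from 6 h to 24 h of all members, from 0.38 and 0.38 to -1.54 and -1.72, and was down at 12 h by -1.14 ± 0.11 (SE, adjusted p = 0.000137). Its pre-B line difference was small, 0.74, 0.83 and 0.28 against -0.54, -0.28 and -0.52. Lmna, which encodes the nuclear lamins A and C, was at 1.62, 1.61 and 0.69 against -0.98, -0.69 and -1.33 in the pre-B line. Its 0 h arrays differed from each other, at 0.35 and -0.41, and its 12 h values of 0.24 and -0.24 gave 0.03 ± 0.27 (SE, adjusted p = 0.948).

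Large pre-B line differences in this group came from the scaffold proteins Anxa5 and Ahnak. Annexin A5 was at 3.06, 3.19 and 1.78 with Ebf1-Eng and -1.83, -1.78 and -1.85 with empty vector, a 22.6-fold difference. Its fall at 12 h of -0.61 ± 0.20 (SE, adjusted p = 0.0432) missed the threshold without 0 h array 1, at -0.34 (adjusted p = 0.223), and without either 12 h array. Ahnak was at 1.70, 1.75 and 2.17 against -1.70, -1.72 and -2.39 and fell at 12 h by -0.86 ± 0.18 (SE, adjusted p = 0.00667). Of 37 measured genes in a list of actin, membrane scaffold and migration genes, 5 were members (Lmna, Anxa5, Ahnak, Plek and Gsn). In that list 19 were higher (7.93% of all genes were) and 3 lower (5.67%) with Ebf1-Eng, with a median difference of 0.78. From 6 h to 24 h, 4 of the 37 passed as lower (4.39% of all genes did) and 0 as higher, with a median of -0.15. These 2 contrasts are those of the rule and are descriptions. At 12 h 20 of the 37 were lower and 3 higher than at 0 h, where 19.9% of all genes passed each way.

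All 6 interferon-inducible members had 12 h means below 0 h. Of these, 5 passed the threshold (Usp18, Xaf1, Igtp, Slfn8 and Rnf213), where 19.9% of all genes passed as lower. The sixth, Samhd1, a dNTP hydrolase, differed by -0.02 ± 0.15 (SE, adjusted p = 0.947). Usp18, which removes ISG15 from proteins, was at 2.26 and 2.60 at 0 h, 0.04 and 0.08 at 6 h, -0.04 and -0.07 at 12 h and -0.80 and -0.54 at 24 h. Most of its fall thus lay before 6 h, and the difference at 12 h was -2.48 ± 0.14 (SE, adjusted p = 8.97e-06). Igtp, an immunity-related GTPase, fell at 12 h by -1.22 ± 0.10 (SE, adjusted p = 5.7e-05). In the pre-B line the interferon-inducible members were highest in Ebf1-Eng samples 1 and 2: Usp18 stood at 3.97, 4.04 and 0.61 and Igtp at 2.69, 2.70 and 0.25 with Ebf1-Eng, against -0.66, -0.61 and -2.83 and -0.32, -0.25 and -0.97 with empty vector. Empty vector sample 3 was also the lowest of its group for both.

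Signalling, survival and transcription genes gave 15 members, 8 lower and 3 higher at 12 h (19.9% of all genes each way). Rgs1, which switches off G-protein signals, had the largest fall of the set at 12 h. It was at 4.30 and 4.53 at 0 h and 0.16 and 0.44 already at 6 h, then -0.66 and -0.16 at 12 h and -0.23 and -0.26 at 24 h. The difference at 12 h was -4.83 ± 0.18 (SE, adjusted p = 2.48e-06), a 28.3-fold fall, of which the step used by the rule was a small part. Mir155hg, the host of the miR-155 sequence given above, fell at each step instead, from 0.83 and 0.63 to 0.29 and 0.17, -0.27 and -0.17 and -0.85 and -0.86. It was lower at 12 h by -0.95 ± 0.11 (SE, adjusted p = 0.000221), and stood at 1.46, 1.28 and 0.70 with Ebf1-Eng against -1.28, -0.70 and -1.35 with empty vector.

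Bcl2, the anti-apoptotic mitochondrial protein, had its fall at both ends of the course, from 1.18 and 1.30 at 0 h to 0.09 and -0.09 at 12 h (-1.24 ± 0.17 (SE, adjusted p = 0.000617)) and -1.35 and -1.52 at 24 h. In the pre-B line it was highest in sample 3 of each group, at -0.06, 0.06 and 1.75 against -1.10, -0.71 and 0.41, and the groups overlapped. Cpeb1, a regulator of mRNA polyadenylation, was at 2.75, 2.57 and 1.87 against -1.87, -2.04 and -2.24 in the pre-B line, and differed at 12 h by 0.15 ± 0.10 (SE, adjusted p = 0.288). Mycn, a Myc-family transcription factor and the only member among 18 measured stem and progenitor markers, rose at 12 h by 0.69 ± 0.12 (SE, adjusted p = 0.00212) before falling to -0.25 and -0.21 at 24 h. Sgk1, the kinase whose promoter window holds the Ebf1-type match, fell at 12 h by -1.72 ± 0.21 (SE, adjusted p = 0.000344).

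**Figure D4:**
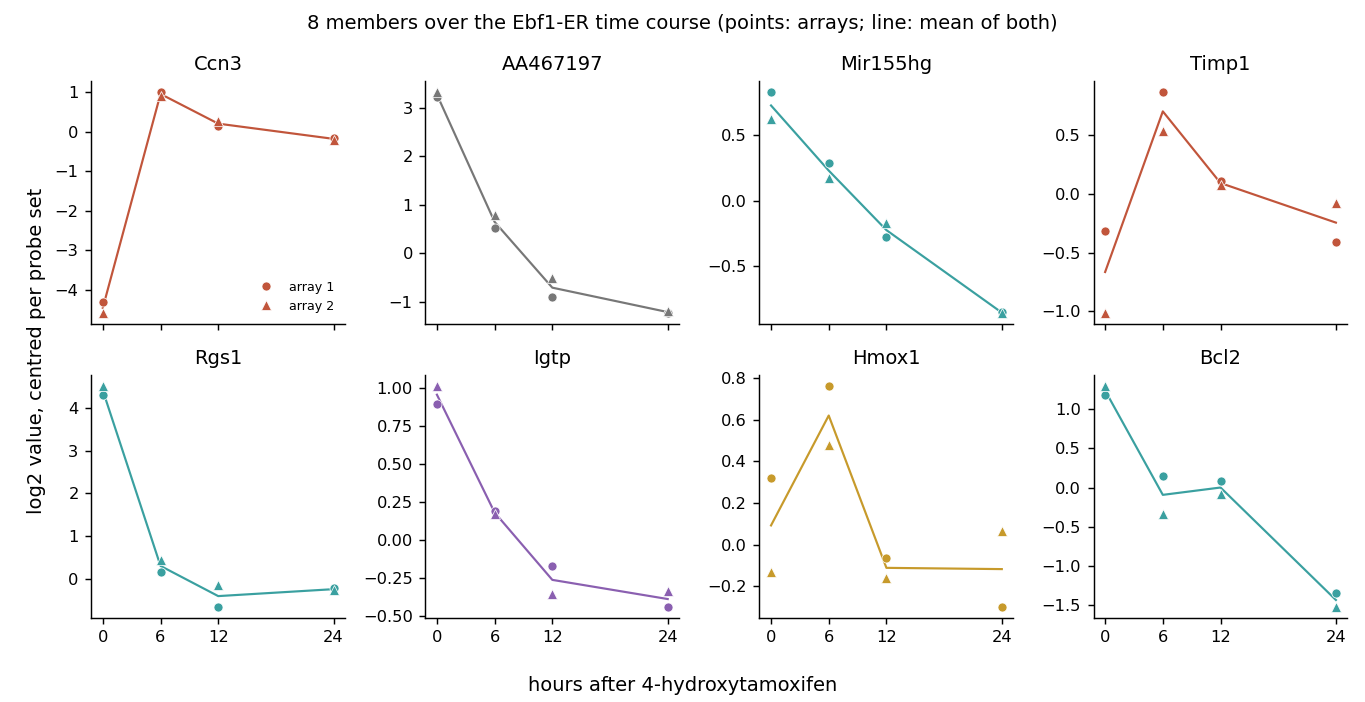
Panels show 8 members; the x axis is hours after 4-hydroxytamoxifen, the y axis the centred log2 value, circles and triangles are arrays 1 and 2 and lines join the means of both. Ccn3 and Timp1 peak at 6 h, Rgs1, AA467197 and Igtp are highest at 0 h, and Mir155hg falls at each step.

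The 16 metabolic, redox and organelle genes had 8 members lower and 3 higher at 12 h (19.9% of all genes each way). Cox6a2, a muscle-type subunit of cytochrome c oxidase, started at 2.19 and 2.38 and was at 0.43 and 0.48 at 6 h and -0.51 and -0.43 at 12 h, a fall of -2.75 ± 0.10 (SE, adjusted p = 2.32e-06). Dhrs3, a retinaldehyde reductase, fell by almost the same amount, -2.76 ± 0.15 (SE, adjusted p = 9.43e-06). The pre-B line samples of Dhrs3 were at 0.40, 0.67 and 0.03 with Ebf1-Eng and -0.91, -0.79 and -0.03 with empty vector. Hmox1, the haem-degrading enzyme, was at 1.67, 1.77 and 0.10 with Ebf1-Eng and -0.10, -0.51 and -2.76 with empty vector, and in the time course at 0.32 and -0.13, 0.76 and 0.48, -0.06 and -0.16 and -0.30 and 0.06. It did not pass the threshold at 12 h (-0.20 ± 0.19 (SE, adjusted p = 0.448)). Nqo1, a quinone reductase, was at 2.30, 2.36 and 0.43 against -0.43, -0.52 and -0.91 in the pre-B line and differed at 12 h by 0.31 ± 0.18 (SE, adjusted p = 0.217). Fabp4, a fatty-acid-binding protein, fell at 12 h by -1.16 ± 0.31 (SE, adjusted p = 0.0195), a call that was lost without 0 h array 1 (-0.66, adjusted p = 0.0725) and without either 12 h array. Vmp1, the autophagy gene that contains miR-21a, fell at 12 h by -0.44 ± 0.09 (SE, adjusted p = 0.00441).

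Among the 16 other genes, AA467197, a small-protein gene that contains miR-147, ranked first by the rule. It was at 3.44, 3.42 and 2.37 with Ebf1-Eng and -2.37, -2.51 and -3.47 with empty vector, a 57.9-fold difference with no overlap. In the time course it went from 3.22 and 3.32 at 0 h to 0.51 and 0.78 at 6 h, -0.92 and -0.51 at 12 h and -1.24 and -1.19 at 24 h. The fall at 12 h was -3.98 ± 0.15 (SE, adjusted p = 2.54e-06), or 15.8-fold. The embryonic beta-like globin Hbb-y was at 1.63, 0.78 and 1.65 against -0.86, -1.19 and -0.78 in the pre-B line and peaked at 6 h, at 1.77 and 1.29, between -0.45 and -0.28 at 0 h and -0.10 and -0.33 at 24 h. Its rise at 12 h of 0.50 ± 0.17 (SE, adjusted p = 0.0469) was lost when any one of the 0 h and 12 h arrays was left out (adjusted p 0.0709 to 0.189), and probe sets of globin genes can share signal between family members. The uncharacterised 2010204K13Rik rose from -3.60 and -3.85 at 0 h to 0.39 and 0.32 at 12 h, by 4.08 ± 0.11 (SE, adjusted p = 1.4e-06). Arfgef3, named for its ARF-exchange-factor domain, rose by 3.12 ± 0.21 (SE, adjusted p = 2.11e-05) and was at -0.33 and -0.92 at 24 h.

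The members are 0.594% of all genes, so a short list that holds none of them is near that share. No member was among 35 measured transcription factors of other lineages, 38 cytokine receptors, 31 TNF ligands and receptors, 17 NF-kB genes, 36 lysosome genes or 21 early B-lineage genes. Of the early B-lineage genes, 13 were lower with Ebf1-Eng (5.67% of all genes were) and none higher. At 24 h, 9 were higher than at 6 h (4.92% of all genes were) and none lower. Against 0 h, however, 9 were lower at 12 h and 5 higher, with a median of -0.37, where 19.9% of all genes passed each way. Of 30 cytokines and growth factors, Il12a and Hbegf were members. Among 28 measured NAD, lipid and redox genes, Fabp4, Hmox1 and Nqo1 were members, and Tyrobp was the only myeloid marker, Fcgr3 having been dropped by its symbol. These comparisons of the rule's own contrasts are descriptions.

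In the enlarged lymph nodes of Ebf1+/-Pax5+/- mice, the members did not move together. Against the samples labelled wild-type pro-B, 10 members were higher (11.3% of all genes were), 16 were lower (8.66% of all genes were) and 82 did not pass the threshold, in limma fits with the duplicate arrays of a node averaged. All 8 nodes lay above both labelled pro-B samples for 14 members and below both for 21, against 15.9% and 12.8% of all genes. The median difference was -0.05, with a range from -5.30 to 2.47. Without labelled pro-B sample 1 the calls were 3 higher and 7 lower, and without labelled pro-B sample 2 they were 3 and 9. Between the rise or fall at 12 h and the lymph node difference, 5 members were higher in both and 6 lower in both. Cfp was higher at 12 h and lower in the nodes, and Vmp1 the reverse. The same counts over all genes are not given here, so nothing is read from these.

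The members lower in the nodes included genes of phagocytes. Tyrobp was at 5.07 and 5.27 in the labelled pro-B samples, and its lowest, median and highest node values were -1.81, -0.39 and 1.61. The difference was -5.30 ± 0.79 (SE, adjusted p = 0.00139). Emilin2, an extracellular glycoprotein, was at 4.36 and 4.69 against -0.27, -0.12 and 0.44, lower by -4.54 ± 0.20 (SE, adjusted p = 1.36e-07). Cd300lf, an inhibitory receptor of myeloid cells, was at 3.73 and 4.10 against -0.27, -0.09 and 0.44, lower by -3.91 ± 0.20 (SE, adjusted p = 5.04e-07). For these 3 genes no node reached the labelled pro-B samples. Mpeg1 (-3.25 ± 0.81 (SE, adjusted p = 0.0192)) and Cfp (-2.52 ± 0.52 (SE, adjusted p = 0.00803)) were also lower, but neither passed without labelled pro-B sample 1 (adjusted p = 0.102 and 0.0668) or without labelled pro-B sample 2 (adjusted p = 0.158 and 0.0873). Hmox1 was at 1.94 and 2.06 in the labelled pro-B samples against -0.18, -0.01 and 0.18, lower by -2.02 ± 0.10 (SE, adjusted p = 4.83e-07). Of the 33 measured myeloid markers, 24 were lower (8.66% of all genes were) and 1 higher (11.3%) in the nodes, with a median of -2.53. The part of myeloid RNA in the samples labelled pro-B in these differences was not tested.

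Higher in the nodes were Pglyrp2, a peptidoglycan amidase, at -2.17 and -2.39 in the labelled pro-B samples against -0.75, 0.11 and 1.04 in the nodes, and 2010204K13Rik, at -2.14 and -2.32 against -0.70, 0.29 and 0.71. Their differences were 2.47 ± 0.40 (SE, adjusted p = 0.00230) and 2.33 ± 0.34 (SE, adjusted p = 0.00115). No node fell to the pro-B level for either gene. Tspan4, a tetraspanin, was higher by 1.64 ± 0.37 (SE, adjusted p = 0.0122), Ext1, which builds heparan sulphate chains, by 1.61 ± 0.42 (SE, adjusted p = 0.0243), and Lgals3bp, a secreted galectin ligand, by 1.56 ± 0.41 (SE, adjusted p = 0.0250). These last 3 calls were lost without either labelled pro-B sample (adjusted p 0.0690 to 0.189), and for Ext1 the mean of its probe sets gave 0.68 (adjusted p = 0.226). Vmp1, with miR-21a in it, was at -0.78 and -0.95 against -0.18, 0.05 and 0.24, higher by 0.91 ± 0.12 (SE, adjusted p = 0.000890).

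**Figure D5:**
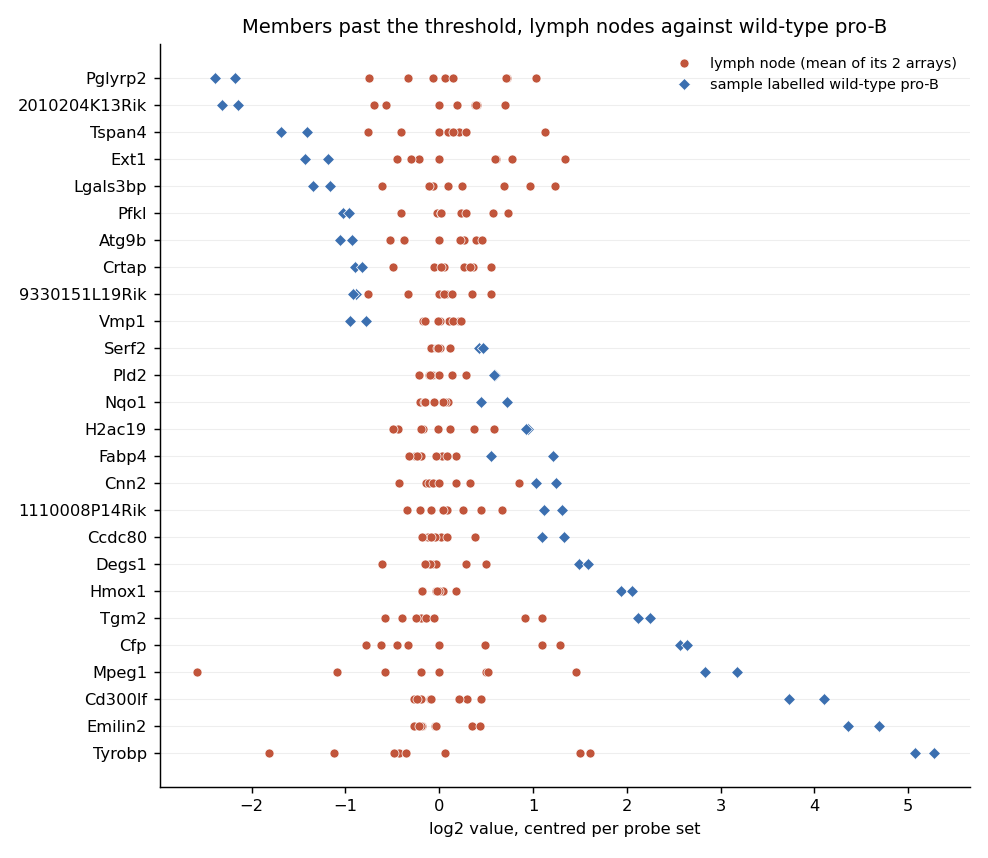
Rows are the 26 members past the threshold in the lymph nodes against the samples labelled wild-type pro-B. Circles are the 8 nodes (mean of 2 arrays each), diamonds the 2 labelled pro-B samples, and the x axis is the deposited log2 value. The pro-B diamonds lie to the left for 10 members and to the right for 16, farthest for Tyrobp.

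A comparison among the nodes did not use the labelled pro-B samples. In an F test over the 16 node arrays, 90 of 108 members differed between nodes (59.7% of all genes did). This test sets the spread between nodes against that between the 2 arrays of the same node, which may be technical alone. For the members the median range from the lowest to the highest node was 1.71, against 0.567 over all genes. The range exceeded 2 for 43 members, a count for which the share of all genes was not taken, so nothing is read from it. The mean of the T-cell markers was 2.30 in Tumor LN 279 and 0.82 in Tumor LN 383, against -0.63 to 0.43 in the other 6 nodes, and Tumor LN 279 was also the highest for NK and innate lymphoid markers, at 2.16 with the next node at 0.48. Leaving out each node in turn gave 87 to 91 members that differed. AA467197 spanned -4.10, -3.69 and 2.98 (lowest, median and highest node), and its difference from the labelled pro-B samples was -3.87 ± 1.94 (SE, adjusted p = 0.203). Gsn spanned -3.77, -0.36 and 1.28 and differed from the labelled pro-B samples by -2.55 ± 0.99 (SE, adjusted p = 0.103), and without Tumor LN 277 it passed the threshold, at -2.12 (adjusted p = 0.0389). The consensus correlation between the duplicate arrays of a node was 0.730.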

How the data were processed

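The 32 arrays were deposited as RMA values, per the submitters' processing notes. The log base and any later step are not given in the sources used here, and the deposited values were read as log2, the scale that RMA returns. The deposited values have a median of 0 for every one of 45101 probe sets within the pre-B line and within the Ebf1-ER experiment, and for 10846 in the tumour experiment (tolerance 1e-05), so they hold differences and no levels, and no depth. Of the probe sets, 34958 had 1 symbol, 932 several and 9211 none; 34754 matched RefSeq (GRCm38.p6), which gave 18194 genes, 9012 of them with several probe sets. Per gene the most variable probe set of the experiment was used. No pair of arrays was closer than a median absolute difference of 0.0911. Differences were fitted over all genes with limma 3.58.1 in R 4.3.3 (lmFit, eBayes) and adjusted by Benjamini-Hochberg; calls use an adjusted p under 0.05, and all times share 1 estimate of spread. The 12 h and lymph node fits were also run on simulated arrays with independent normal noise and known changes. Such arrays hold no sample that stands apart, so nothing is concluded from them here. The labels do not state that sample numbers pair the pre-B line. The deviations of same-numbered samples there correlated at 0.286, 0.356 and 0.445. Ebf1-Eng sample 1 correlated as much with empty vector sample 2, at 0.289, and Ebf1-Eng sample 2 with empty vector sample 1 at 0.141. These values thus do not settle how samples 1 and 2 pair. In the time course the samples share only a number.

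The members and gene lists were chosen with earlier results of these data known. Named genes are Ebf1, the 15 members with the largest smaller of the 2 scaled rule differences, the 5 largest called rises and falls at 12 h and in the nodes, the 3 genes on each side of each threshold, and members in the gene lists. The 7 role groups, the motifs, and the further members named (Usp18, Igtp, Samhd1, Xaf1, Slfn8, Rnf213, Bcl2, Sgk1, Vmp1, Tgm2, Mmp19, P4ha2 and those in the closing section) were chosen after values were seen. Alternatives left out arrays or nodes and changed the probe set, thresholds, block and filter.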

Additional observations from a re-analysis of the deposited data

Results flagged for a closer look

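Among the 8 lymph nodes, 12 members had 1 node whose distance to its nearest neighbour was large for the range of the group (Dixon's criterion for 8 values), which chance alone gives for about 1 in 20 groups. These are 11.1% of the members, against 10.9% of all genes by the same criterion. In Tumor LN 279, Ccn3 stood at 3.40 with the next node at 0.10, Ddr1 at 1.95 with the next at 0.11, Cdkn2b at 0.963 and Prss2 at 0.824. This node also had the highest mean of T-cell markers (2.30), NK and innate lymphoid markers (2.16), dendritic-cell markers (0.655) and myeloid markers (0.605), whose part in these values was not tested. In Tumor LN 317, Lmna stood at 4.56 with the next node at 0.37, Atf3 (a stress-response transcription factor) at 4.54 with the next at 0.69, Xaf1 at 3.17 and Tnfrsf12a (the TWEAK receptor) at 0.897. In Tumor LN 277, Arfgef3 stood at 2.65 with the next node at 0.08, Kcnh2 (a potassium channel) at 0.339, and Stap1 (a signalling adaptor) lowest, at -1.72, with the next at -0.15. St7l in Tumor LN 278 was at 0.971.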

How the results depend on the processing

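The set depends on its thresholds: 58 members remained when an adjusted p under 0.05 was also asked in both contrasts, 68 when the pre-B line fit had the replicate block (chosen after seeing the data), 63 with the mean of all probe sets and 36 at 1 and -0.7. At 0.6 and -0.4 the rule gave 226 genes, all 108 among them. Without 1 sample at a time the rule gave 86 to 150 genes, 78 to 107 of them among the 108. At 12 h, without 1 array at a time, 16 to 23 members were higher and 35 to 50 lower than at 0 h, and the replicate block, whose numbers do not pair the time course, gave 22 and 44. In the lymph nodes, without 1 sample at a time, 3 to 12 were higher and 7 to 19 lower (3 and 7 without labelled pro-B sample 1, 3 and 9 without sample 2), and 87 to 91 differed between nodes, 91 with the replicate block. No difference of a named gene that passed the threshold changed sign under the alternatives run. Limits are 2 arrays per time point and 2 labelled pro-B samples, values that hold differences and no levels, and the drug without Ebf1-ER not analysed here. A further limit is genes such as Hbb-y, Prss2, H2ac19 and Trgv4, whose probe sets may share signal with relatives.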

Other observations

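The 14 genes dropped by symbol met the same differences, and their values, which come from the contrasts of the rule, are a description. The chemokine Ccl3 differed by 6.41 between Ebf1-Eng and empty vector and by -3.33 between 24 h and 6 h, farther than any of the 108 members in both. Ccl5, another chemokine, stood at 1.38 and -1.36, and Klrd1, the CD94 receptor chain of NK cells, at 1.91 and -1.34. The interferon-inducible GTPase genes Gbp6 and Gbp8 differed by 4.43 and 2.99 with Ebf1-Eng and by -0.64 and -0.57 in the time course. The integrin subunit Itgb7 was at 1.45 and -0.93, and the stress-induced Gadd45g at 3.34 and -0.80.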
